A study of Mus musculus with 6 samples.

Results

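The 36 genes described here carry cells through mitosis. They were chosen by name, as rows of the series' expression table, and all 36 were found among its 51912 genes. All 36 also passed the filter of at least 1 TPM in at least 3 libraries, which left 12068 genes to test. TPM is a level scaled by transcript length and by the library total, so levels of different genes can be compared. The series measured RNA by sequencing in B16F10, a pigmented mouse melanoma line. Of its 6 libraries, 3 came from cells with the genotype ANXA10-/-, called A10KO (replicates 1, 13 and 14), in which the annexin A10 gene was knocked out (annexins bind membranes when calcium is present), and 3 from wild-type cells (WT, replicates 1, 2 and 3). No further allele, treatment or time is labelled in either group. The labels do not say whether the replicate numbers stand for clones, cultures or repeated preparations. Every p-value below reflects library-to-library spread, which may be technical. The test used, limma, draws the spread of each gene towards that of other genes of like level. Its SEs, intervals and p-values are therefore not from 1 gene's libraries alone.

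Mitosis is driven by cyclin-dependent kinase 1 bound to A- and B-type cyclins, and it ends when the anaphase-promoting complex, a ubiquitin ligase, marks cyclin B and securin for destruction. Between these points the spindle checkpoint holds anaphase until every kinetochore is attached to microtubules. Most genes of this programme are transcribed late in the cell cycle, in G2 and mitosis, by complexes that include the factors B-MYB and FOXM1. Many of their promoters hold a cell cycle homology region, read as TTTGAA or TTTAAA, downstream of CCAAT boxes bound by NF-Y. Melanoma lines in culture divide continuously, and the level of these transcripts in bulk RNA follows the share of cells in late cell cycle phases. In bulk RNA, fewer cells in those phases and less RNA per such cell cannot be told apart.

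Both kinds of motif were common in the promoters of the 36 genes. RefSeq promoter windows (GRCm38.p6, 250 bases before to 50 after each start) were matched by symbol for 31 of the 36 genes, in 34 windows, since Bub3, Prc1 and Ect2 have more than 1 start. CCAAT, searched on both strands as CCAAT or ATTGG, was in 27 of the 34 windows (79.4%) against 37.4% of all 32851 windows in the table. TTTGAA, searched also as TTCAAA, was in 79.4% against 17.9%, and TTTAAA in 26.5% against 13.2%. CCAAT together with TTTGAA or TTTAAA was in 26 of 34 windows (76.5%, Wilson 95% interval 60.0 to 87.6%, counting error only) against 10.7% of all windows, counted in any order. In the bases before the start alone that share was 50% against 8.78%. The Wilson interval counts the overlapping windows of Bub3, Prc1 and Ect2 as separate. Counted by gene over the whole window, 23 of 31 held the pair. Motifs of different kinds overlapped once, in the Cdca8 window. A match is a run of letters and not a shown binding site. The 120 bases before the start are printed for 5 genes in which TTTGAA or TTTAAA follows a CCAAT box and which are described below, and for Nuf2, whose window held none of these motifs. Capitals mark CCAAT and either homology-region motif on both strands.
Cdk1 (chr10:69352913-69353032, minus strand): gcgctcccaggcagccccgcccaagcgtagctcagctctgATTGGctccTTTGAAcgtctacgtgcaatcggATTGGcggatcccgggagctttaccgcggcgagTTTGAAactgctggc
Ccnb1 (chr13:100786487-100786606, minus strand): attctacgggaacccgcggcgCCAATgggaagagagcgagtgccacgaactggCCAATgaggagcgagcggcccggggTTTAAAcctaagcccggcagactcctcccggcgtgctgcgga
Cdc20 (chr4:118437344-118437463, minus strand): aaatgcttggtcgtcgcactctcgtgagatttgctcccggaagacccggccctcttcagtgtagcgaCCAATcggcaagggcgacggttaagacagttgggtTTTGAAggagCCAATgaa
Ube2c (chr2:164769809-164769928, plus strand): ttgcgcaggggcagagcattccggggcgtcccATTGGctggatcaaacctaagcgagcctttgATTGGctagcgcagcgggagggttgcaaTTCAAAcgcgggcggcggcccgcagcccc
Top2a (chr11:99024190-99024309, minus strand): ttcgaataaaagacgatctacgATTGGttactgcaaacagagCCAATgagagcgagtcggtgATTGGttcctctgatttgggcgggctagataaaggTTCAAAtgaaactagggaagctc
Nuf2 (chr1:169531465-169531584, minus strand): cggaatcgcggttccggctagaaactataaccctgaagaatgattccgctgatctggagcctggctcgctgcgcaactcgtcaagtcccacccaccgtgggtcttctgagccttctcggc
Within these bases, the CCAAT boxes of Ccnb1 begin 99 and 67 bases before the start and TTTAAA begins 42 bases before it. In Ube2c the order is the same, with CCAAT at 88 and 57 bases and TTTGAA at 29. In Top2a CCAAT lies at 98, 78 and 58 bases and TTTGAA at 23. The 23 genes with both kinds of motif had a median log2 change between genotypes of -0.11, and the 8 with a window but without that pair had -0.08.

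The libraries were those of pigmented melanoma cells. All 7 melanocyte markers were detected, at summed levels of 9410 to 11254 TPM in A10KO and 8913 to 10016 TPM in WT. Of 9 leukocyte, 7 fibroblast and 6 endothelial markers, 7, 5 and 5 were under 1 TPM in every library, with Tyrobp and Cd3e among those listed at 0. Anxa10 was listed at 0 TPM in all 6 libraries, WT included, and gave no check of the labels. The mitochondrial gene mt-Atp6 was listed at 0 as well, so a 0 in these tables can be a failed estimate. No mitosis gene was at 0 in any library. Sequencing depth is unknown, because TPM does not retain it. The mitochondrial share of TPM was 7.93%, 14.7% and 7.37% in A10KO replicates 1, 13 and 14, against 6.32% to 6.56% in WT.

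As a group, the mitosis genes stood at nearly the same level in both genotypes. Their summed share of TPM was 0.341%, 0.290% and 0.348% for A10KO replicates 1, 13 and 14, against 0.357%, 0.346% and 0.356% in WT replicates 1, 2 and 3. A10KO replicate 13 was lowest, A10KO replicate 1 lay just under the WT libraries and A10KO replicate 14 among them. With limma on log2(TPM + 1), 0 of the 36 genes passed an adjusted p of 0.05 over all genes tested, where 0.0414% of all tested genes passed. Adjusted p-values of the 36 genes ran from 0.471 to 0.992. At an unadjusted p under 0.05 there was 1 gene, Aurkb (2.78% of the 36), and it stood lower in A10KO, against a background of 8.83% of all genes in either direction 6.27% in the lower and 2.56% in the higher direction. Separation without overlap was seen for 4 genes that stood lower in A10KO (11.1%), Aurkb, Bub1b, Tpx2 and Kif2c, where the background was 11.5%. It was seen for 2 that stood higher (5.56%), Nuf2 and Ttk, where the background was 5.61%. Each of these shares was near or below its background.

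The size of any difference was bounded for most of the 36 genes. The 95% interval of the log2 change lay within 2-fold in both directions for 35 of them (97.2%) and within 1.5-fold for 22 (61.1%). Among 7569 genes averaging 10 TPM or more, a level that all 36 genes reach, these shares were 87.7% and 48.6%. The exception to the 2-fold bound was Kif2c, whose interval ran from -1.10 to 0.25. The median log2 change was -0.11 over the 36 genes and -0.04 over all genes tested, and 31 of the 36 had a log2 change below 0 against 56.5% of all genes. Other scalings lowered both the count and its background, the count by more as a share of the 36 genes. The count was 25 under median-of-ratios scaling, where 50.2% of all genes were below 0, 25 under quantile normalization (48.0%) and 24 with mitochondrial transcripts removed (47.4%), and the median of the 36 genes minus that of all genes was -0.061, -0.080 and -0.060 in these settings against -0.065. With each chromosome's median removed the count was 19 (47.7% of all genes) and the difference of medians -0.022. With a trend on transcript length and GC content removed the count was 26 (47.8% of all genes) and the difference -0.135. Leaving out 1 library gave differences from -0.121 without A10KO replicate 1, where the count was 29 (50.3% of all genes), to 0.048 without A10KO replicate 13. Without A10KO replicate 13 the count was 24 (62.5% of all genes), and the median of the 36 genes, -0.03, lay above that of all genes, -0.08.

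**Figure D1:**
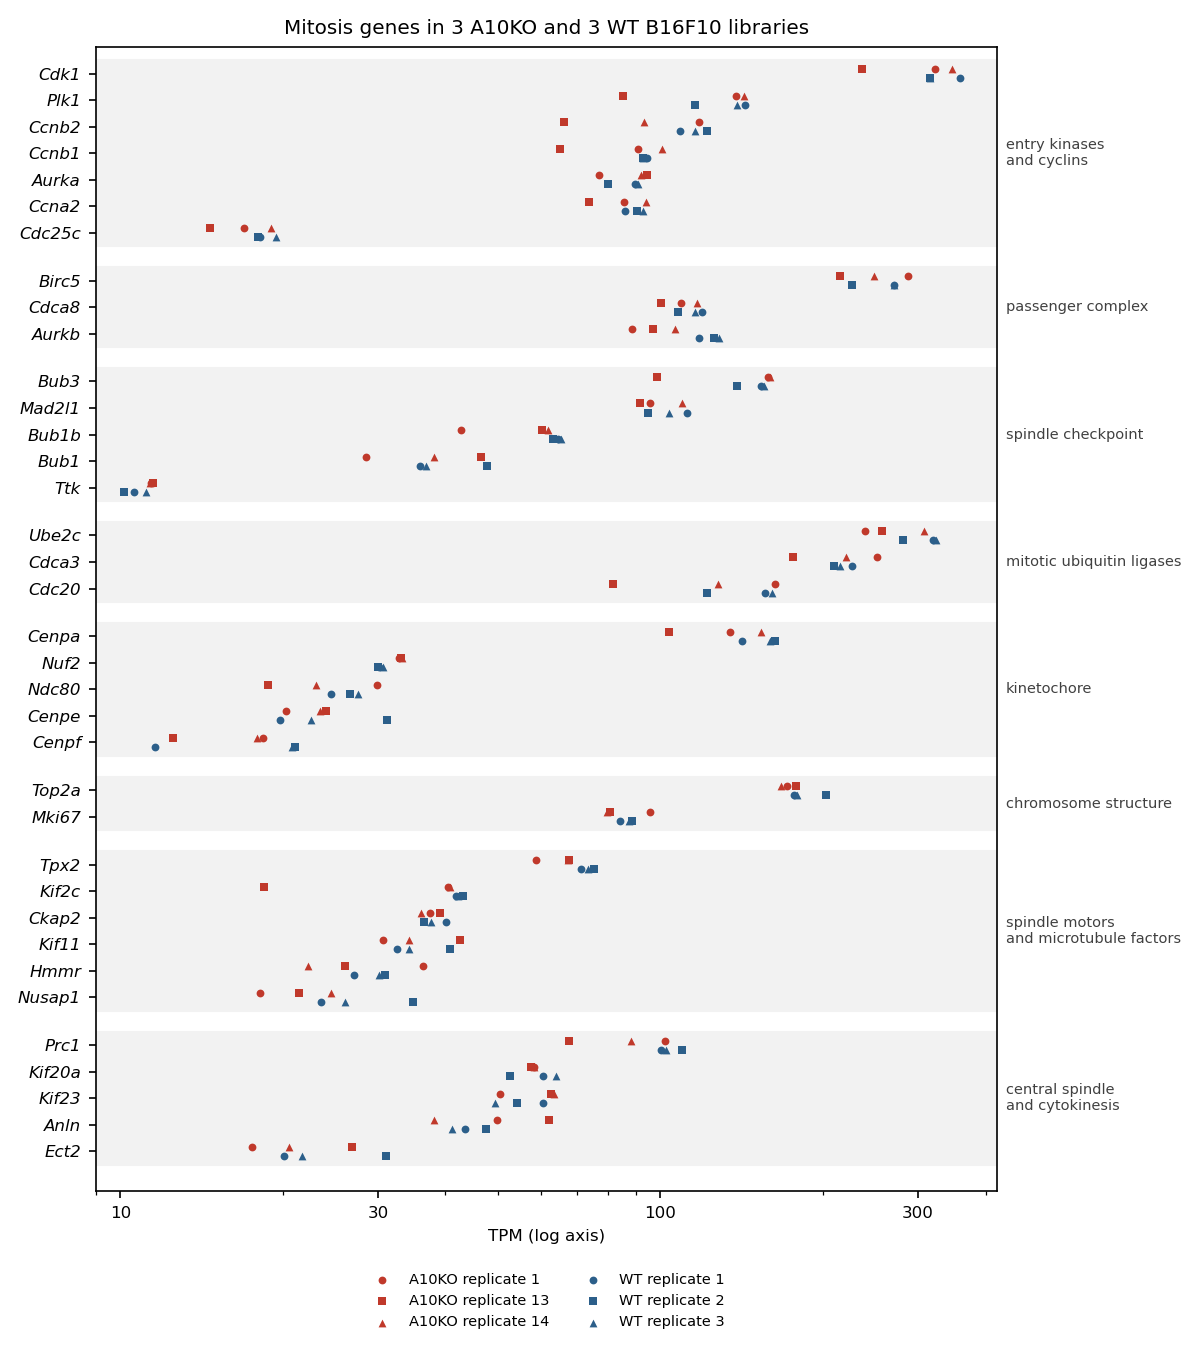
TPM (log axis) of each of the 36 mitosis genes in the 3 A10KO libraries (red, upper points of each row) and the 3 WT libraries (blue, lower points), grouped by role; symbols mark replicates. Red squares, A10KO replicate 13, are the lowest point of 16 of the 36 rows.

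**Figure D2:**
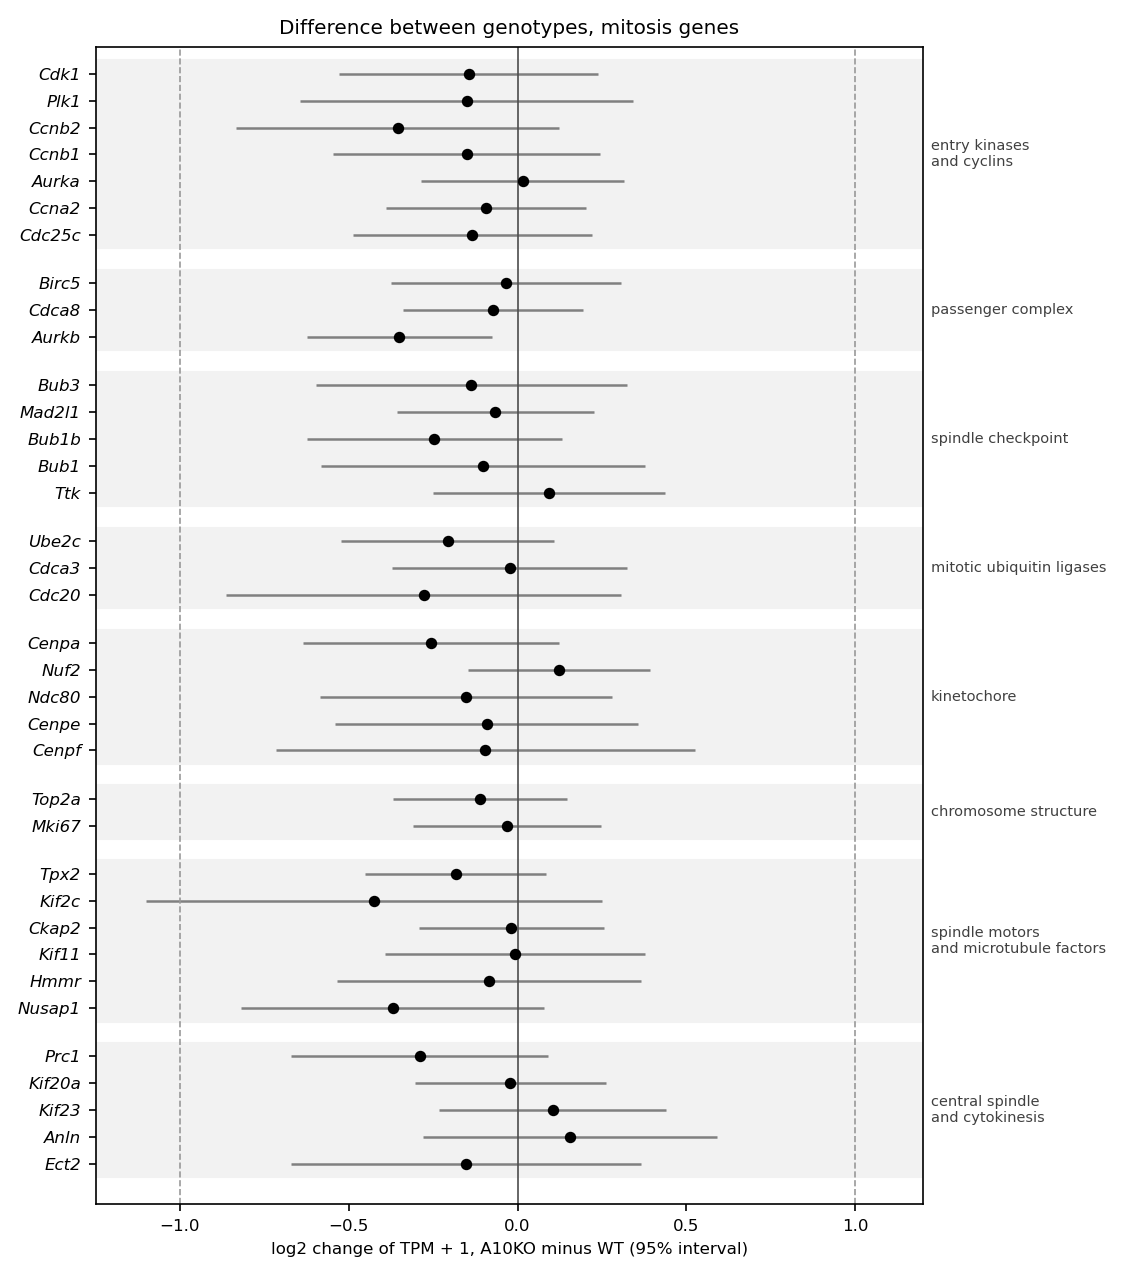
Log2 change of TPM + 1, A10KO minus WT, for the 36 mitosis genes with 95% intervals from limma (3 libraries per group); dashed lines mark 2-fold. Only the interval of Aurkb lies wholly on one side of 0, and only that of Kif2c crosses a 2-fold line.

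The genes of mitotic entry, apart from Cdc25c, stood at high levels in both genotypes. Cdk1, the catalytic subunit of the mitotic kinase, was the most abundant of the 36 genes. It had 322, 236 and 346 TPM in A10KO replicates 1, 13 and 14, against 358, 315 and 315 TPM in WT replicates 1, 2 and 3. A10KO replicate 13 was the lowest library and the other A10KO libraries lay within the WT range. The log2 change was -0.15 (SE 0.16, limma adjusted p = 0.820), with a 95% interval from -0.53 to 0.24, and 0.022 without A10KO replicate 13. Ccnb2, one of the B-type cyclins that activate Cdk1, had 118, 66.2 and 93.3 TPM in A10KO, against 109, 122 and 116 TPM in WT. Its log2 change was -0.36 (SE 0.20, limma adjusted p = 0.665), -0.14 without A10KO replicate 13 and from -0.55 to -0.14 over all alternatives. Its partner in that role, Ccnb1, had 90.9, 65.2 and 100 TPM in A10KO, against 94.6, 93.0 and 93.0 TPM in WT. The WT libraries of Ccnb1 lay very close together, with an SD of 0.922 TPM, and A10KO lay on both sides of them, with an SD of 18.2 TPM. Plk1, a kinase that drives mitotic entry and spindle formation, had 138, 85.4 and 143 TPM in A10KO, against 144, 116 and 139 TPM in WT. Ccna2, the cyclin of S phase and early mitosis, ranged from 73.8 to 94.0 TPM in A10KO and from 86.1 to 93.0 TPM in WT. Cdc25c, the phosphatase that activates Cdk1, was the least abundant of this set, at 14.6 to 19.0 TPM in A10KO and 18.02 to 19.4 TPM in WT. In 6 of the 7 genes A10KO replicate 13 was the lowest of all libraries. The exception was Aurka, the kinase of the spindle poles, which had 77.0, 94.6 and 92.2 TPM in A10KO, against 89.6, 80.0 and 90.8 TPM in WT, and was highest in that library.

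The chromosomal passenger complex corrects faulty attachments at the centromere and later moves to the midzone. Its kinase, Aurkb, was the gene with the smallest p-value of the 36. Aurkb had 88.6, 97.0 and 106 TPM in A10KO replicates 1, 13 and 14, against 118, 126 and 128 TPM in WT replicates 1, 2 and 3. Every A10KO library lay below every WT library. The means were 97.3 ± 8.89 TPM in A10KO and 124 ± 5.56 TPM in WT (SD, n = 3 each), a ratio of 0.784. The log2 change was -0.35 (SE 0.12) and did not pass the threshold over all genes (limma adjusted p = 0.471). The other subunits measured did not share this separation. Birc5, which encodes survivin, had 288, 215 and 248.8 TPM in A10KO, against 270, 227 and 271 TPM in WT (log2 change -0.03, SE 0.15, limma adjusted p = 0.959). Cdca8, which encodes borealin, had 109, 100 and 117 TPM in A10KO, against 119, 108 and 116 TPM in WT. Incenp, the scaffold of the complex, which is not among the 36 genes and was chosen after its values were seen, had 57.1, 52.6 and 65.7 TPM in A10KO, against 60.7, 54.7 and 62.4 TPM in WT.

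None of the 5 spindle checkpoint genes passed the test, and the groups overlapped in 3. Bub1b, which encodes BubR1, a part of the complex that inhibits Cdc20, had 42.7, 60.2 and 61.9 TPM in A10KO, against 64.8, 63.3 and 65.4 TPM in WT. Every A10KO library was below every WT library, but A10KO replicates 13 and 14 by less than 4 TPM. The log2 change of Bub1b was -0.25 (SE 0.16, limma adjusted p = 0.711), -0.078 without A10KO replicate 1 and from -0.34 to -0.078 over all alternatives. Ttk, the kinase that starts checkpoint signalling, was the least abundant of the 36 genes and lay the other way, with 11.4, 11.5 and 11.3 TPM in A10KO, against 10.6, 10.2 and 11.1 TPM in WT (log2 change 0.09, SE 0.15, limma adjusted p = 0.873). Over all alternatives the log2 change of Ttk ran from 0.0075 to 0.15. Bub3, the adaptor that carries Bub1 and BubR1 to kinetochores, was the most abundant of this set, with 158, 98.6 and 160 TPM in A10KO, against 154, 139 and 156 TPM in WT (log2 change -0.14, SE 0.20, limma adjusted p = 0.859). Its low value was again in A10KO replicate 13, and without that library its log2 change was 0.091. Bub1, a checkpoint kinase, had its lowest value in A10KO replicate 1, with 28.5, 46.5 and 38.2 TPM in A10KO, against 35.9, 47.8 and 36.8 TPM in WT. Mad2l1, which encodes the checkpoint inhibitor MAD2, ranged from 91.6 to 109 TPM in A10KO and from 94.7 to 112 TPM in WT.

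Genes that act with ubiquitin ligases in mitosis overlapped between the genotypes. Ube2c, the ubiquitin-conjugating enzyme that works with the anaphase-promoting complex, had 239, 257 and 307 TPM in A10KO, against 320, 281 and 324 TPM in WT. Its log2 change was -0.21 (SE 0.14, limma adjusted p = 0.711), -0.13 without A10KO replicate 1 and from -0.31 to -0.060 over all alternatives. Cdc20, the activator of that complex and the target of the checkpoint, had 163, 81.9 and 128 TPM in A10KO, against 157, 122 and 161 TPM in WT. A10KO replicate 1 held the highest and A10KO replicate 13 the lowest Cdc20 value of the 6 libraries. Cdca3, a factor linked to the degradation of the Cdk1 inhibitor Wee1, showed the same order, with 251, 176 and 220 TPM in A10KO, against 227, 210 and 215 TPM in WT.

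At the kinetochore, Nuf2 stood higher in A10KO with little spread in either group. Nuf2, a subunit of the NDC80 complex that binds microtubules, had 32.8, 33.1 and 33.2 TPM in A10KO, against 30.1, 30.04 and 30.6 TPM in WT. The groups did not overlap and differed by a ratio of 1.09 (log2 change 0.12, SE 0.12, limma adjusted p = 0.783). The SD of log2(TPM + 1) for Nuf2 was 0.011 in A10KO and 0.014 in WT, so this SE came mainly from the spread of other genes. The direct partner of Nuf2, Ndc80, did not follow it, with 29.9, 18.8 and 23.0 TPM in A10KO, against 24.6, 26.7 and 27.6 TPM in WT. Cenpa, the histone variant that marks centromeres and the most abundant of this set, had 134, 104 and 154 TPM in A10KO, against 142, 163 and 159 TPM in WT. Its log2 change was -0.26 (SE 0.16, limma adjusted p = 0.694), -0.10 without A10KO replicate 13 and from -0.38 to -0.10 over all alternatives. Cenpe, a kinetochore motor, and Cenpf, a kinetochore and nuclear matrix protein, varied more within WT than within A10KO. Cenpf had 18.4, 12.5 and 17.9 TPM in A10KO, against 11.6, 21.03 and 20.8 TPM in WT. Cenpe ranged from 20.3 to 24.1 TPM in A10KO and from 19.8 to 31.2 TPM in WT.

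Neither gene of chromosome structure passed the test, and both are general proliferation markers. Top2a, the topoisomerase that disentangles chromosomes, had 171, 178 and 167 TPM in A10KO, against 177, 203 and 179 TPM in WT. Its log2 change was -0.11 (SE 0.11, limma adjusted p = 0.792), -0.048 without WT replicate 2 and from -0.16 to -0.0016 over all alternatives. Mki67, which encodes the Ki-67 protein that coats mitotic chromosomes, had 95.5, 80.7 and 79.7 TPM in A10KO, against 84.3, 88.8 and 87.5 TPM in WT. Its 95% interval ran from -0.31 to 0.25 on the log2 scale.

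Among spindle motors and microtubule factors, Kif2c had the log2 change farthest from 0, and it rested on 1 library. Kif2c, a microtubule depolymerase of the centromere, had 40.5, 18.5 and 40.8 TPM in A10KO, against 41.8, 43.2 and 42.2 TPM in WT. A10KO replicates 1 and 14 lay within 2 TPM of the lowest WT library, and replicate 13 lay far below them all. Its log2 change was -0.42 (SE 0.29, limma adjusted p = 0.725), -0.06 without A10KO replicate 13 and from -0.61 to -0.06 over all alternatives. Tpx2, which activates Aurora A on the spindle, had 58.8, 67.7 and 67.4 TPM in A10KO, against 71.2, 75.3 and 73.6 TPM in WT, with no overlap. Its log2 change was -0.18 (SE 0.12, limma adjusted p = 0.691), -0.12 without A10KO replicate 1 and from -0.22 to -0.063 over all alternatives. Nusap1, a microtubule-bundling protein, had 18.2, 21.5 and 24.6 TPM in A10KO, against 23.6, 34.8 and 26.0 TPM in WT (log2 change -0.37, SE 0.19, limma adjusted p = 0.634). WT replicate 2 held its highest value, and without that library the log2 change was -0.21. Over all alternatives the log2 change of Nusap1 ran from -0.48 to -0.20. Kif11, the motor that separates spindle poles, averaged 35.8 TPM in each genotype, with SDs of 6.07 TPM in A10KO and 4.34 TPM in WT. Ckap2, a microtubule-stabilising protein, ranged from 36.1 to 39.1 TPM in A10KO and from 36.6 to 40.1 TPM in WT. Hmmr, a spindle and hyaluronan-binding protein, ranged from 22.2 to 36.3 TPM in A10KO and from 27.1 to 31.0 TPM in WT.

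Genes of the central spindle and of cytokinesis included the log2 change farthest above 0. Anln, which encodes the contractile ring scaffold anillin, had 49.8, 62.1 and 38.1 TPM in A10KO, against 43.4, 47.5 and 41.2 TPM in WT (log2 change 0.15, SE 0.19, limma adjusted p = 0.830). A10KO held both its highest and its lowest value, and the log2 change was -0.013 without A10KO replicate 13. Kif23, a motor of the centralspindlin complex, had 50.6, 62.8 and 63.5 TPM in A10KO, against 60.5, 54.2 and 49.4 TPM in WT (log2 change 0.10, SE 0.14, limma adjusted p = 0.852). Its log2 change was 0.034 without WT replicate 3 and from 0.019 to 0.21 over all alternatives. Prc1, which bundles midzone microtubules, had 102, 67.7 and 88.4 TPM in A10KO, against 100, 110 and 102 TPM in WT. Its log2 change was -0.29 (SE 0.16, limma adjusted p = 0.659), -0.13 without A10KO replicate 13 and from -0.42 to -0.090 over all alternatives. Kif20a, a midzone motor, was tightly held in A10KO at 57.5 to 58.4 TPM and ranged from 52.7 to 64.1 TPM in WT. Ect2, the exchange factor that activates RhoA for cytokinesis, ranged from 17.5 to 26.9 TPM in A10KO and from 20.1 to 31.0 TPM in WT.

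The A10KO libraries spread more widely than the WT libraries for most genes, and no more often so for the 36 genes. To place each library, its log2(TPM + 1) was set against the mean of the WT libraries, and a WT library was set against the other WT libraries. The medians over the 36 genes were -0.05, -0.21 and -0.04 in A10KO replicates 1, 13 and 14, against -0.03, 0.00 and 0.02 in WT replicates 1, 2 and 3. The SD of log2(TPM + 1) was larger in A10KO than in WT for 27 of the 36 genes (75%), and for 81.4% of genes averaging 10 TPM or more. The median SD of the 36 genes was 0.22 in A10KO and 0.10 in WT. For genes averaging 10 TPM or more it was 0.26 in A10KO and 0.12 in WT.

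A10KO replicate 13 was the lowest library for more of the 36 genes than any other library was. It was the lowest of the 6 libraries for 16 of the 36 genes (44.4%), against 28.7% of genes averaging 10 TPM or more. In that library 15 of the 36 genes were at least 0.3 below the WT mean on the log2 scale, against 27.2% of those genes, and 1, Anln, was at least 0.3 above it, against 23.1%. By role, the medians in that library were -0.48 for the entry kinases and cyclins, -0.43 for the kinetochore genes, -0.30 for the ubiquitin ligase genes and -0.24 for the passenger complex. They were -0.14 for the spindle motors, -0.10 for the spindle checkpoint, -0.08 for chromosome structure and 0.17 for the cytokinesis genes. The roles hold 2 to 7 genes each, and with 1 library these medians have no replicate and no test. Other settings were compared, namely median-of-ratios scaling, quantile normalization, and removal of mitochondrial transcripts, of chromosome medians or of a length and GC trend. The entry set ranged from -0.51 to -0.26 over them, with 6 of 7 genes lowest in that library in each. The kinetochore genes ranged from -0.46 to -0.30, the ligase genes from -0.34 to -0.15 and the passenger complex from -0.28 to -0.095. In the unchanged data 2 of 5 kinetochore genes were lowest in A10KO replicate 13 and 2 in WT replicate 1. WT replicate 2 stood lower than A10KO replicate 13 in some settings. Under quantile normalization the passenger complex was at -0.13 in WT replicate 2, against -0.095 in A10KO replicate 13. With mitochondrial transcripts removed the ligase genes were at -0.19 in WT replicate 2, against -0.16 in A10KO replicate 13. The other roles crossed 0 in A10KO replicate 13, the spindle motors from -0.35 to 0.003, the checkpoint from -0.15 to 0.048, chromosome structure from -0.45 to 0.12 and the cytokinesis genes from -0.10 to 0.31. The share of TPM taken by mitochondrial transcripts was also highest in this library, at 14.7%, and its part in the result was not tested beyond the removal of those transcripts, which left the median of the 36 genes at -0.07 and that of the entry set at -0.33.

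**Figure D3:**
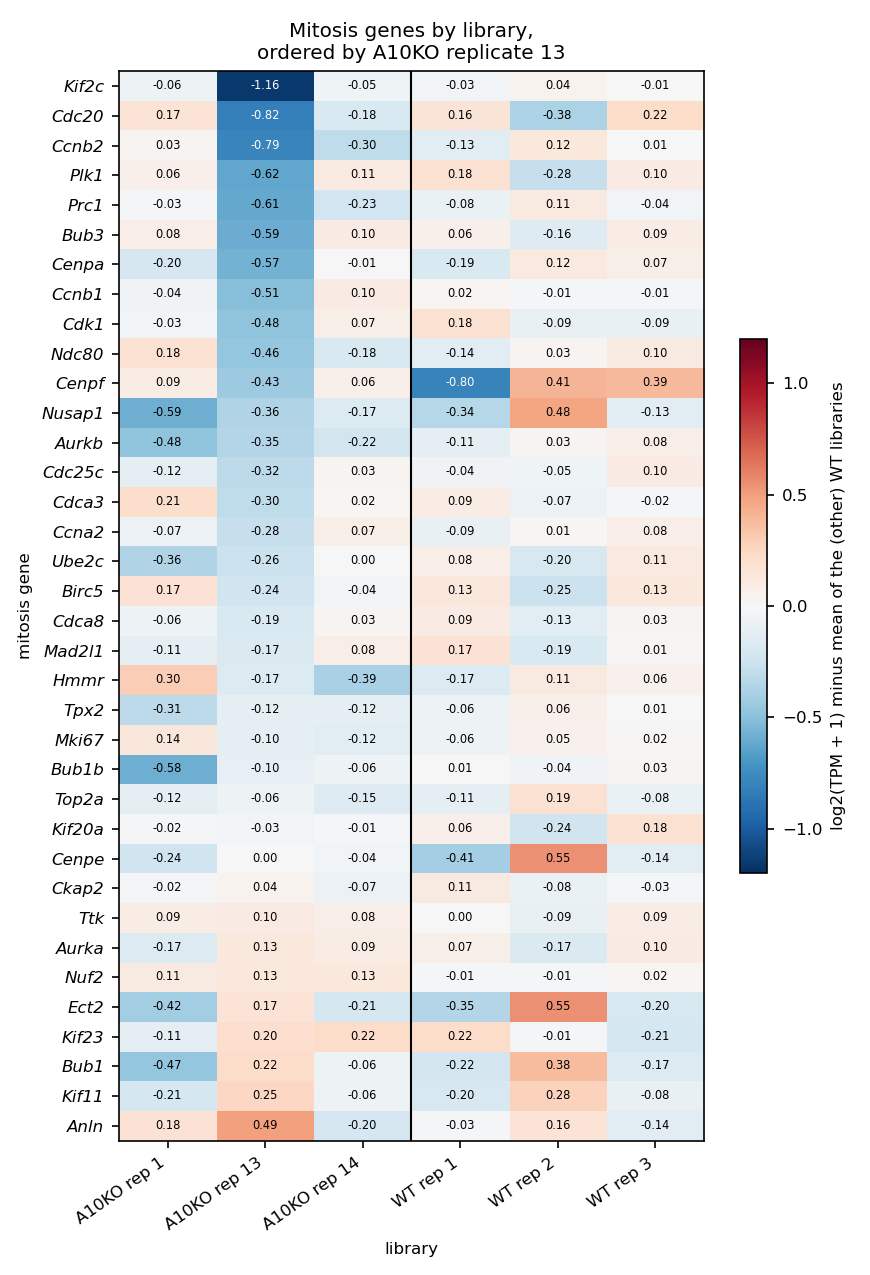
Difference of log2(TPM + 1) from the mean of the WT libraries (a WT library is set against the other WT libraries) for the 36 mitosis genes (rows, ordered by A10KO replicate 13) in the 6 libraries (columns, A10KO left of the line). The column of A10KO replicate 13 runs from -1.16 for Kif2c to 0.49 for Anln, and WT replicate 1 holds an isolated low value of -0.80 for Cenpf.

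The chromosome on which a gene lies went along with part of this spread. Coordinates are GENCODE M21 genes on GRCm38, and chromosome medians were taken over the other tested genes averaging 5 TPM or more. On chromosome 2 lie 6 of the 36 genes, Aurka (172356190 to 172370535), Bub1b (118598211 to 118641591), Bub1 (127801122 to 127831865), Ube2c (164769898 to 164778822), Tpx2 (152847964 to 152895321) and Nusap1 (119618298 to 119651244). All 6 were lowest, of all 6 libraries, in A10KO replicate 1. So were 75.8% of the 778 other genes of that chromosome. In A10KO replicate 1 the median of these other genes was -0.44 and that of the 6 mitosis genes -0.42, whereas in A10KO replicates 13 and 14 the other genes were at 0.10 and 0.00. On chromosome 7, Plk1, Bub3, Mki67 and Prc1 had a median of -0.60 in A10KO replicate 13, where the other 677 genes were at -0.34. On chromosome 13, Ccnb1 (100778650 to 100786570) was at -0.51 in that library, where the other genes were at -0.27.

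Some values in A10KO replicate 13 lay far from the median of their chromosome. On chromosome 4, Kif2c (117159639 to 117182639) and Cdc20 (118432901 to 118437352) were at -1.16 and -0.82 in A10KO replicate 13, where the other 637 genes were at -0.10. On chromosome 9, Ccnb2 (70407692 to 70421547) was at -0.79 and Anln (22332012 to 22389188) at 0.49 in the same library, where the other genes were at 0.13. Cdk1 (chromosome 10, 69335146 to 69352938) was at -0.48 where the other genes of its chromosome were at 0.04. On chromosome 11, Aurkb (69045647 to 69051664) was at -0.48, -0.35 and -0.22 in A10KO replicates 1, 13 and 14, and the other 813 genes were below 0 as well, at -0.12, -0.05 and -0.15. With chromosome medians removed, Aurkb no longer had an unadjusted p under 0.05, and 0 of the 36 genes did. The part of the chromosome-wide differences in the values of single genes was not tested further.

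**Figure D4:**
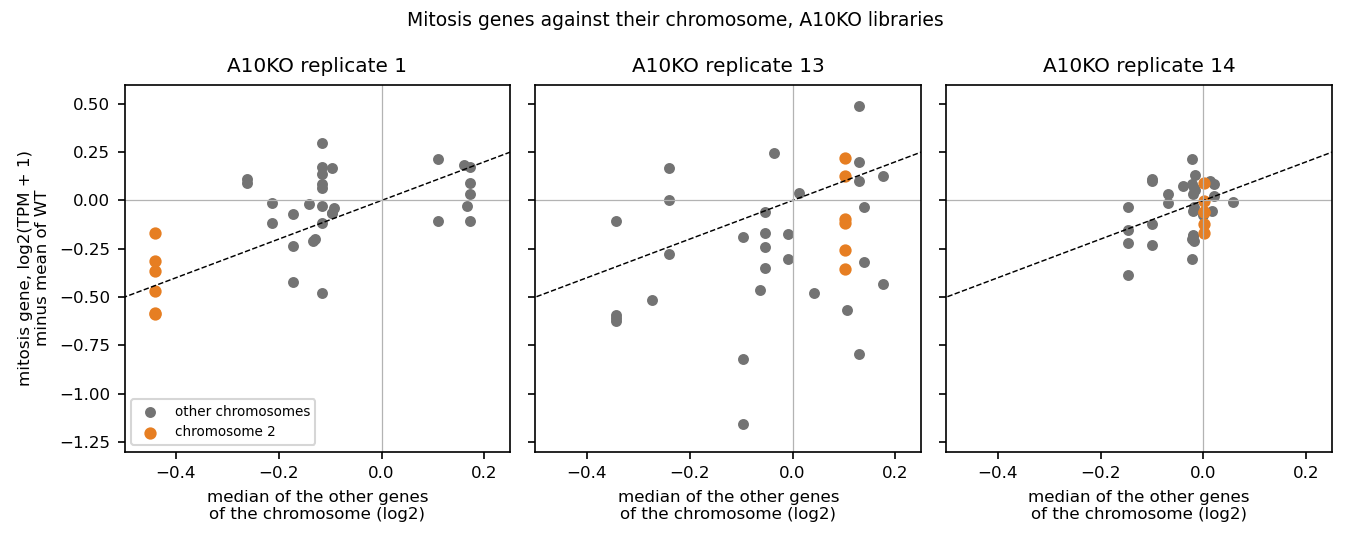
Each point is 1 of the 36 mitosis genes in 1 A10KO library: its difference from the WT mean (vertical axis, log2) against the median difference of the other genes on its chromosome (horizontal axis, log2); the dashed line marks equality and orange points lie on chromosome 2. In A10KO replicate 1 the 6 orange points cluster around the chromosome's median of -0.44, while in A10KO replicate 13 points lie far below the line, down to -1.16.

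Transcript length went along with the values as well, in libraries of both genotypes. Over the 36 genes, the rank correlation between transcript length and the difference from WT was 0.42 in A10KO replicate 13 and -0.06 and -0.12 in A10KO replicates 1 and 14. It was 0.42 in WT replicate 2 and -0.27 and -0.38 in WT replicates 1 and 3. These are correlations across genes of shared libraries and carry no test. Over 9366 genes averaging 5 TPM or more the values were 0.38 in A10KO replicate 13 and 0.29 in WT replicate 2. The 18 shorter transcripts, up to 3026 bases, had a median difference of -0.33 in A10KO replicate 13 and the 18 longer ones -0.10. Longer transcripts also had lower GC content, with a rank correlation of -0.58 over the 36 genes. A trend on length and GC was also removed from each library, a setting added after seeing the data. The median of the 36 genes in A10KO replicate 13 was then -0.33, and 23 genes were lowest there. The unchanged data had 16 such genes. Removal of mitochondrial transcripts gave 13 and quantile normalization 14, whereas subtracting each chromosome's median gave 18 and median-of-ratios scaling 19. Shares of all genes are not given for these altered settings. The part of length and GC in the result was not tested further.

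**Figure D5:**
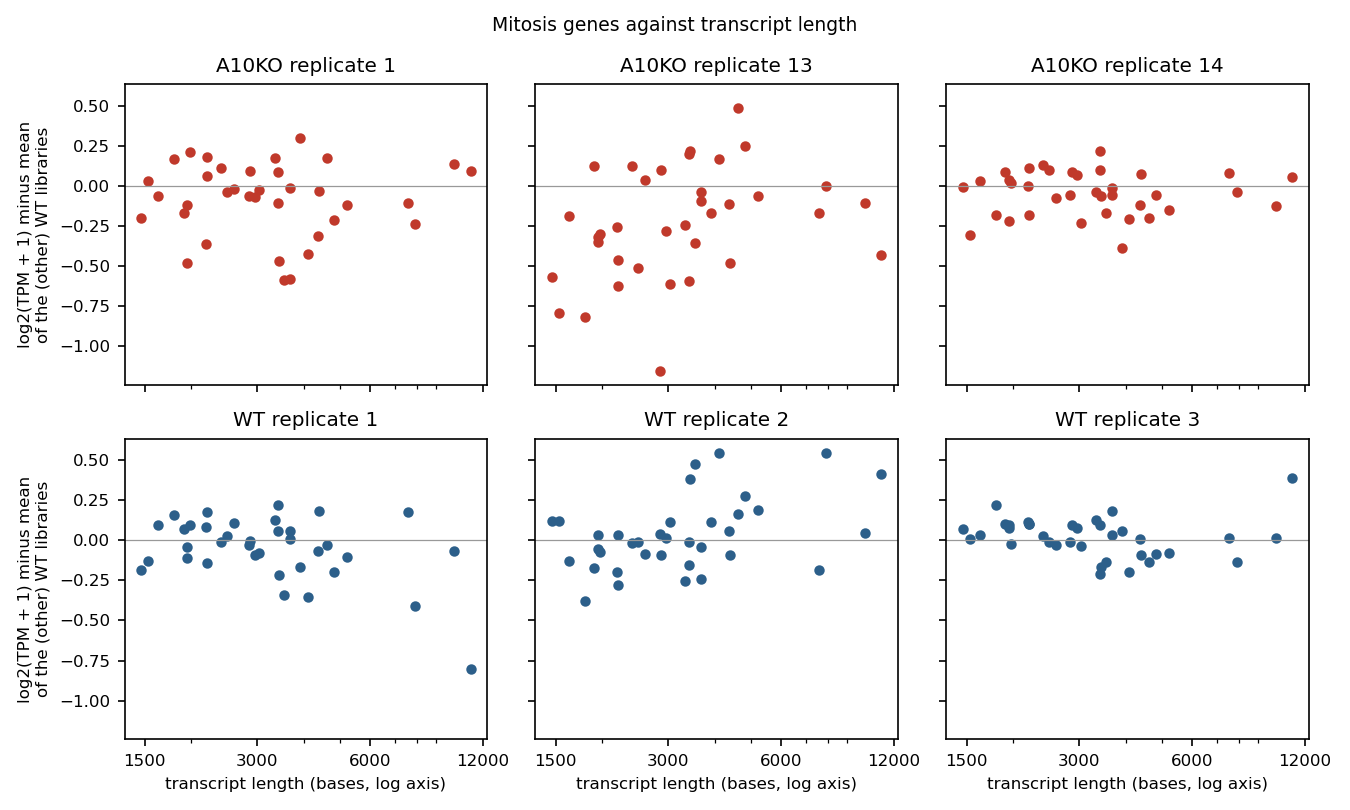
Difference of log2(TPM + 1) from the mean of the WT libraries (a WT library is set against the other WT libraries) against transcript length (bases, log axis) for the 36 mitosis genes, 1 panel per library with A10KO in the upper row. Points tend to lie higher towards the right in A10KO replicate 13 and WT replicate 2, with rank correlations of 0.42 in each.

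Of 144 tested genes in 7 further lists, 0 passed the threshold with limma, and at an unadjusted p under 0.05 there were 8, all standing lower in A10KO (background 6.27%). Their median log2 change was -0.04. Wee1, the kinase that restrains Cdk1, had the lowest adjusted p of these genes. It had 19.8, 22.0 and 19.5 TPM in A10KO, against 29.3, 45.1 and 30.6 TPM in WT, with no overlap (log2 change -0.72, limma adjusted p = 0.339). Cdc25a, a phosphatase that opposes Wee1, lay the other way without overlap, at 26.8 ± 0.763 TPM in A10KO and 21.9 ± 3.42 TPM in WT (SD, n = 3 each; log2 change 0.29, limma adjusted p = 0.643). Among 11 genes of mitotic entry control, 7 were lowest in A10KO replicate 13 (63.6%), with a median of -0.38 in that library. The 7 lists together did not share this, with 43 of 144 genes lowest there (29.9%) and a median of -0.04. The share among genes averaging 10 TPM or more was 28.7%. Of the 13 cohesin and separase genes, 1 was lowest in A10KO replicate 13, and their median there was 0.29.

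Of 17 genes for the anaphase-promoting complex and its partners, 12 had a log2 change below 0 with a median of -0.02. Anapc2, its cullin subunit, stood at 23.4 ± 6.49 TPM in A10KO and 35.8 ± 3.74 TPM in WT (log2 change -0.62, limma adjusted p = 0.481), and Cdc27, a subunit of its scaffold, at 23.4 ± 9.03 TPM in A10KO and 19.1 ± 3.15 TPM in WT. The 8 condensin genes had a median of -0.18, with Ncapg at 25.2 ± 2.78 TPM in A10KO and 32.5 ± 2.61 TPM in WT and Ncaph at 48.2 ± 10.7 TPM in A10KO and 57.2 ± 0.239 TPM in WT. Neither passed (limma adjusted p = 0.538 and 0.717). The 13 cohesin and separase genes had a median of 0.03. Pds5a, a cohesin regulator, had 39.4, 58.8 and 44.7 TPM in A10KO, against 37.8, 40.2 and 41.8 TPM in WT, and Stag1, a cohesin subunit, at 16.9 ± 3.14 TPM in A10KO and 14.2 ± 0.901 TPM in WT.

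The 32 other kinetochore genes had a median of -0.10, with Cenpp at 8.47 ± 2.55 TPM in A10KO and 12.2 ± 0.902 TPM in WT and Cenpk at 16.1 ± 6.31 TPM in A10KO and 20.8 ± 0.885 TPM in WT. The 43 other spindle and cytokinesis genes had a median of -0.04. Haus1, a subunit of the augmin complex that branches spindle microtubules, stood at 30.3 ± 5.46 TPM in A10KO and 41.5 ± 3.26 TPM in WT without overlap (limma adjusted p = 0.502). Arhgap11a, a RhoA regulator, stood at 123 ± 33.5 TPM in A10KO and 168 ± 32.5 TPM in WT.

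Among the same 7 lists, that of 20 tested genes held cell cycle transcription factors and their partners, with B-MYB, FOXM1, NF-Y and E2F factors among them. Of these, 0 passed the threshold with limma. At an unadjusted p under 0.05 there was 1, lower in A10KO and counted among the 8 above (5%, background 6.27%). They had a median log2 change of 0.02. Foxm1, chosen after its values were seen, had 114, 95.5 and 110 TPM in A10KO, against 111, 96.4 and 106 TPM in WT (log2 change 0.03, limma adjusted p = 0.964). Mybl2, which encodes B-MYB and was also chosen after its values were seen, stood at 29.7 ± 5.82 TPM in A10KO and 34.2 ± 4.90 TPM in WT. The genes of this list with the largest differences were Lin52, a subunit of the complex that B-MYB joins, at 4.81 ± 1.79 TPM in A10KO and 7.44 ± 1.72 TPM in WT, and E2f2, at 14.1 ± 3.90 TPM in A10KO and 9.40 ± 0.736 TPM in WT (limma adjusted p = 0.604 and 0.568).

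DNA replication genes, which mark S phase, had a median log2 change of -0.06 over 43 genes, against -0.11 for the mitosis genes, and 0 of them passed. Their medians were -0.14, -0.08 and 0.08 in A10KO replicates 1, 13 and 14, against 0.04, -0.10 and 0.07 in WT replicates 1, 2 and 3. In A10KO replicate 13 the median over all 36 mitosis genes was -0.21. Rpa1, a single-stranded DNA-binding subunit, stood at 148 ± 15.2 TPM in A10KO and 192 ± 12.9 TPM in WT without overlap (log2 change -0.38, limma adjusted p = 0.463). Slbp, which binds histone mRNA, stood at 82.0 ± 27.7 TPM in A10KO and 62.2 ± 1.90 TPM in WT. Of 13 tested G1 cyclins, kinases and inhibitors, 0 passed, with a median of -0.08. Ccnd2 stood at 130 ± 31.1 TPM in A10KO and 100 ± 17.8 TPM in WT, and Ccnd3 at 223 ± 86.6 TPM in A10KO and 179 ± 5.92 TPM in WT.

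Some values rest on reads that other genes could share. Of the 50-base words in the longest coding transcript, 42.1% for Ccnb1, 11.4% for Cdc20, 6.84% for Plk1 and 5.34% for Ndc80 also occur in transcripts of other genes, and for the other 32 genes the share was below 3%. The gene sharing most with Ccnb1 was Gm5593, at no more than 0.06 TPM. How the authors' counting used strand is not given in the sources used here, and exons of genes on the opposite strand cover 29.3% of the exon bases of Kif20a (from Cdc23, up to 35.3 TPM), 22.8% of Ube2c (from Tnnc2, up to 1.14 TPM), 12.7% of Cdc25c, 12.5% of Ccna2 and 11.1% of Prc1. How far such sharing moved the values was not tested.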

How the data were processed

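RNA was sequenced from 3 A10KO and 3 WT libraries of B16F10. The RNA was a Trizol total extract with DNase I treatment, per the labels' protocols. The tools named are fastp, HISAT and RSEM and the build is GRCm38.p5, per the submitters' processing notes, with versions and roles not given in the sources used. The deposited values are TPM, a unit read from the values, since the table's name speaks of raw counts but its entries have decimals and total between 969834 and 985045 in each library. The 6 single-library tables matched the series table exactly. TPM keeps no depth, so no counting interval is given.

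The test was limma 3.58.1 (R 4.3.3) with a mean-variance trend on log2(TPM + 1), A10KO minus WT without covariates, for the 12068 genes reaching 1 TPM in 3 or more libraries. The variance of each gene was moderated towards the trend, with 3.5 prior degrees of freedom. A pseudocount of 1 understates changes of low genes. Adjusted p-values are Benjamini-Hochberg over all genes tested. Mitosis genes and all lists were chosen with earlier results of these data known. Values per library are given for the most abundant gene of each role, the 4 largest log2 changes in each direction, genes whose groups do not overlap, the gene with an unadjusted p under 0.05, and others of the 36. Other lists contribute up to 2 genes each, with a mean of at least 5 TPM, with the largest absolute log2 change. Transcript length and GC come from the longest coding transcript in GENCODE M21, which matched 51633 genes of the table by identifier. Promoter sequences come from RefSeq, GRCm38.p6. Alternatives were another pseudocount, 2 other filters, 3 other scalings, removal of chromosome medians, array quality weights, no variance trend, removal of a length and GC trend, and leaving out each library.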

Additional observations from a re-analysis of the deposited data

How the results depend on the processing

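Under all 16 alternatives 0 of the 36 mitosis genes passed the threshold over all genes, and the lowest adjusted p of any of them was 0.244 (limma). The count of the 36 genes with a log2 change below 0 ran from 19, with chromosome medians removed, to 31, with a pseudocount of 0.1 among others. The count at an unadjusted p under 0.05 was 0 with chromosome medians removed and 0 with the length and GC trend removed, and 0 to 3 when 1 library was left out, with 3 without A10KO replicate 1 (Ccnb2, Aurkb and Prc1) or A10KO replicate 14 (Aurkb, Ube2c and Cenpa). Over all genes tested, the count past the threshold was 3 under quantile normalization, 25 with array quality weights and 2 to 8 when 1 library was left out, against 5. The median log2 change of the other mitotic lists was 0.023 with mitochondrial transcripts removed, against -0.04. In the bases before the start alone, TTTGAA was in 41.2% of the promoter windows of the mitosis genes (16% of all windows), TTTGAA or TTTAAA in 55.9% (25.2%) and CCAAT with TTTGAA or TTTAAA in 50% (8.78%). A shorter stretch of the same windows can only lower the promoter shares. The cause of the other shifts was not tested.

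Of the 36 genes, 21 changed the sign of their log2 change under at least 1 alternative, all with a log2 change of at most 0.15 in size. Among the genes given with a test, Birc5 was at 0.0097 under median-of-ratios scaling, 0.015 under quantile normalization, 0.0075 with the length and GC trend removed, 0.031 with mitochondrial transcripts removed, 0.074 with chromosome medians removed and from -0.14 to 0.069 when 1 library was left out. Bub3 was at 0.063 with chromosome medians removed and from -0.25 to 0.091 when 1 library was left out. With 1 library left out, Cdk1 ran from -0.25 to 0.022 and Anln from -0.013 to 0.33. No paired analysis was possible because the 2 groups share only replicate number 1. Unknown depth and 3 libraries per group limit what can be detected.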
